A study of Mus musculus with 54 samples.

Results

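The 9 genes described here are the 3 TGF-beta ligands Tgfb1, Tgfb2 and Tgfb3, the receptors Tgfbr1 and Tgfbr2, the co-receptor Tgfbr3, the induced matrix gene Tgfbi, and the feedback genes Skil and Smad7. They were taken by name from the 23481 gene rows of the expression table, and all 9 passed the filter on low values used below. RNA was sequenced in 54 libraries of 4T1, a mammary carcinoma line of the mouse that spreads to the lung from tumors in the mammary gland. They cover 23 clones, each started from 1 sorted cell, along with 2 orthotopic tumors, meaning tumors grown in the mammary gland, and 2 lung metastases. Each clone and specimen has a library A and a library B. Clones E and T were scored as intravasating, that is, able to enter the blood vessels when tested in a pool, and the other 21 clones as non-intravasating.

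No clone carried a labelled genetic change or treatment, and each clone is 1 cell line, so E and T are the only replicates of the intravasating class. The labels give no strain, age or treatment of the mice and leave unsaid whether host cells were removed. Nothing says that libraries A and B came from separate cultures, so p-values over libraries reflect only how far A and B differ, which may be technical. In bulk specimens, fewer cells of a type and less RNA per cell cannot be told apart.

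TGF-beta ligands are secreted in a latent form and released by integrins and proteases. The active ligand joins the type II receptor Tgfbr2 to the type I receptor Tgfbr1, which phosphorylates Smad2 and Smad3, and these move to the nucleus with Smad4. Ski-family proteins such as Skil and the inhibitory Smad7 dampen the signal and are themselves induced by it. In mammary carcinoma the pathway is known both for arresting growth and for promoting invasion and spread.

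The 3 ligands are close relatives, so their sequences are shown first, to show how far short reads can tell them apart. The lines below give the last 120 coding bases before the stop codon, which encode the end of the mature ligand, from the GENCODE M21 transcripts. They lie in the last coding exon on GRCm38 (mm10), at chr7:25704820-25704939 on the plus strand in exon 7 of Tgfb1, at chr1:186625451-186625570 on the minus strand in exon 8 of Tgfb2, and at chr12:86057783-86057902 on the minus strand in exon 7 of Tgfb3. Capitals mark the 42 positions that are not the same in all 3 genes.
Tgfb1: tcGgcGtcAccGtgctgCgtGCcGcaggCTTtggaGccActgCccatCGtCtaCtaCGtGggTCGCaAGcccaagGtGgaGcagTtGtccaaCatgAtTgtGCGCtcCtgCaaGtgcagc
Tgfb2: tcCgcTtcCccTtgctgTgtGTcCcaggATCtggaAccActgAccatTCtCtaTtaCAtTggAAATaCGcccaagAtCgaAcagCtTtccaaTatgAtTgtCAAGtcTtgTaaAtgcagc
Tgfb3: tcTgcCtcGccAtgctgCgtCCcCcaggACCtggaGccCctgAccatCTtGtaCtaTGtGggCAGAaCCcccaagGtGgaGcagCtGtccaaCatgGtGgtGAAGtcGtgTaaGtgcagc
The other 78 positions were shared by all 3. Between pairs, identity over these bases was 71.7% for Tgfb1 and Tgfb2, 77.5% for Tgfb1 and Tgfb3, and 74.2% for Tgfb2 and Tgfb3. Over 1 whole transcript per gene (2175 bases for Tgfb1, 3485 for Tgfb2 and 3383 for Tgfb3) the longest run shared by any pair was 15 bases. That is well short of the 76-base reads. The longest coding transcript of Tgfb2, at 5116 bases, was not the one compared.

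Depth was 8849257 to 31609870 reads per library in the clones, 12183058 to 17369960 in the tumors and 16327693 to 20368740 in the lung metastases. The lung libraries lettered A had a read in 20278 and 19868 genes, above the 16604 and 16972 of the lung libraries lettered B and the 14130 to 17300 of all others, and the part of this in the lung differences was not tested. With libraries lettered B only, 2 of the 9 genes were called between lung and clones and 2 between lung and tumors, against 3 and 5 with libraries lettered A only. Clone G stood apart in blood-cell genes. Its summed level of 6 neutrophil markers was 911.7 normalized counts against a median of 11.3 over the 23 clones. Its leukocyte, macrophage and platelet sums, at 265.8, 2251 and 193.2, were also the highest of any clone. The leading genes S100a8, Cd53, Cd14 and Ppbp reached 854.5, 238.8, 1699 and 178.8 counts in their highest clone. Other listed markers stayed low in every clone, such as Ptprc, Lyz2, Csf3r and Tyrobp at no more than 8.46, 6.49, 3.02 and 0.60. Levels below are normalized counts, averaged over libraries A and B. Each difference, with its standard error (SE), is on the authors' log2 scale, which compresses low counts, so the fold of a low gene is larger than its log2 difference shows.

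**Figure D1:**
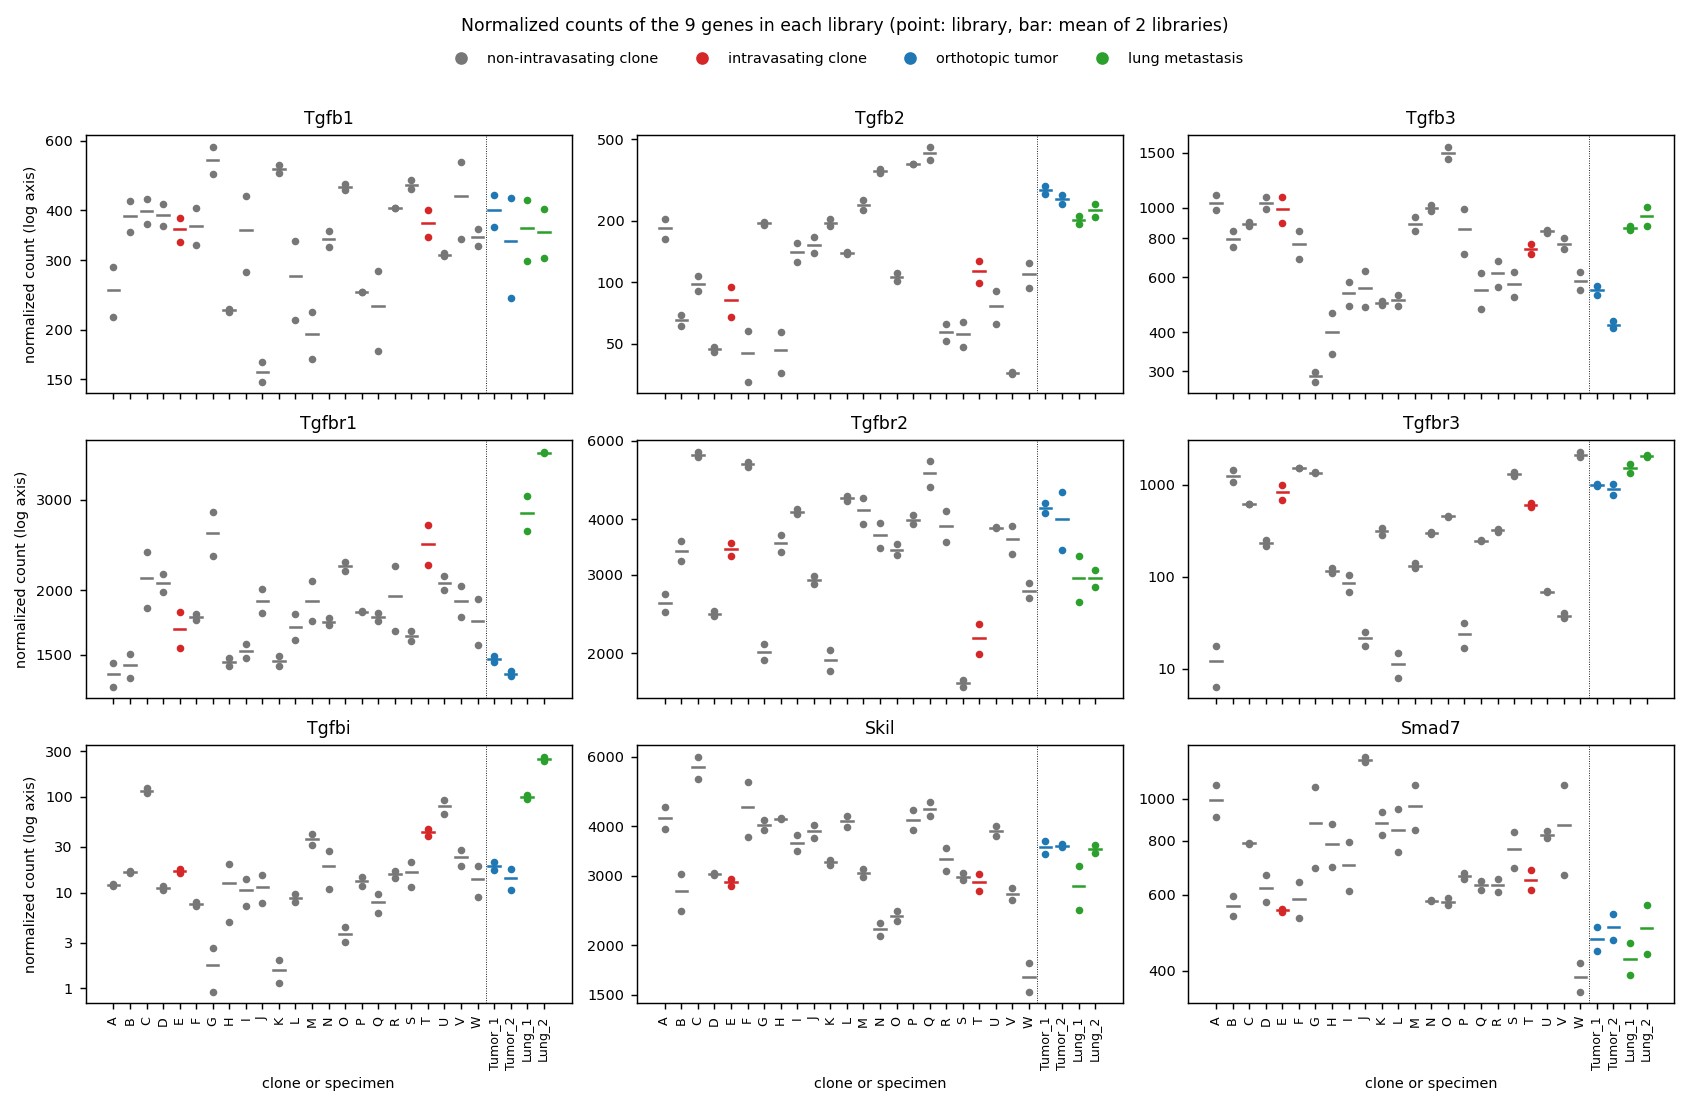
Normalized counts (log axis) of the 9 genes in every library, by clone (letters) and specimen. Points are libraries, bars are means of 2 libraries, and colors mark the class. Tgfbr3 runs from 11.3 counts in clone L to 2124 in clone W, Tgfbr1 and Tgfbi are high in both lung metastases, and Smad7 lies below 22 of the 23 clones in all 4 specimens.

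All 9 genes differed among the 23 clones by more than the libraries of a clone differed from each other, led by the co-receptor Tgfbr3. The moderated F-test of limma over the 46 clone libraries called 9 of 9 genes, with adjusted p from 5.21e-27 for Tgfbr3 to 2.25e-06 for Tgfbr1. It also called 95.1% of the 13637 genes tested, so the count of members is near that of genes in general. The count was also 9 without clone G. The SD between clones had a median of 0.46 on the log2 scale over the 9 genes and of 0.29 over all genes tested, with Tgfbr1 below the latter at 0.23.

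Tgfb1, the ligand made by most cell types, ranged from 157 normalized counts in clone J through a median of 358.2 to 536.1 in clone G, a 3.41-fold span. The next highest clone, K, was at 509.3, so the top does not rest on clone G alone. When clones were ordered by level, 18 of the 22 pairs of neighbours had overlapping libraries, so the order holds only between distant clones.

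Tgfb2, the ligand best known from development and from dormancy of spread tumor cells, varied more. Its level ran from 36.0 counts in clone V through a median of 109.6 to 426.1 in clone Q, an 11.8-fold span. The libraries of clone Q read 394 and 458.2 counts and those of V 36.5 and 35.5, and 17 of 22 neighbouring pairs overlapped. Clones P and N followed Q, at 380.1 and 351 counts.

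Tgfb3, a ligand of mammary involution and palate closure, ranged from 288.4 counts in clone G through 763.8 to 1498 in clone O, a 5.19-fold span. Clone H was next lowest at 400.2, and 18 of 22 neighbouring pairs overlapped.

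Per kb of the longest coding transcript, the scale on which genes can be compared, Tgfb3 was the highest ligand in 18 of 23 clones. Tgfb1 was highest in the other 5 (G, I, K, R and S), and Tgfb2 was the lowest in all 23. The median levels were 225.8 counts per kb for Tgfb3, 164.7 for Tgfb1 and 21.4 for Tgfb2. Of the summed ligand counts per kb, Tgfb3 made up 23.1% in clone G and 67% in clone A, and Tgfb2 made up 1.62% in clone V and 23.8% in clone Q. The order of Tgfb1 and Tgfb3 depends on the length used. With the union of all exons, Tgfb3 was highest in 22 clones and Tgfb1 in 1, and Tgfb2 was lowest in 20. The shares move as well, and the Tgfb3 share of clone G was then 37.9%.

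**Figure D2:**
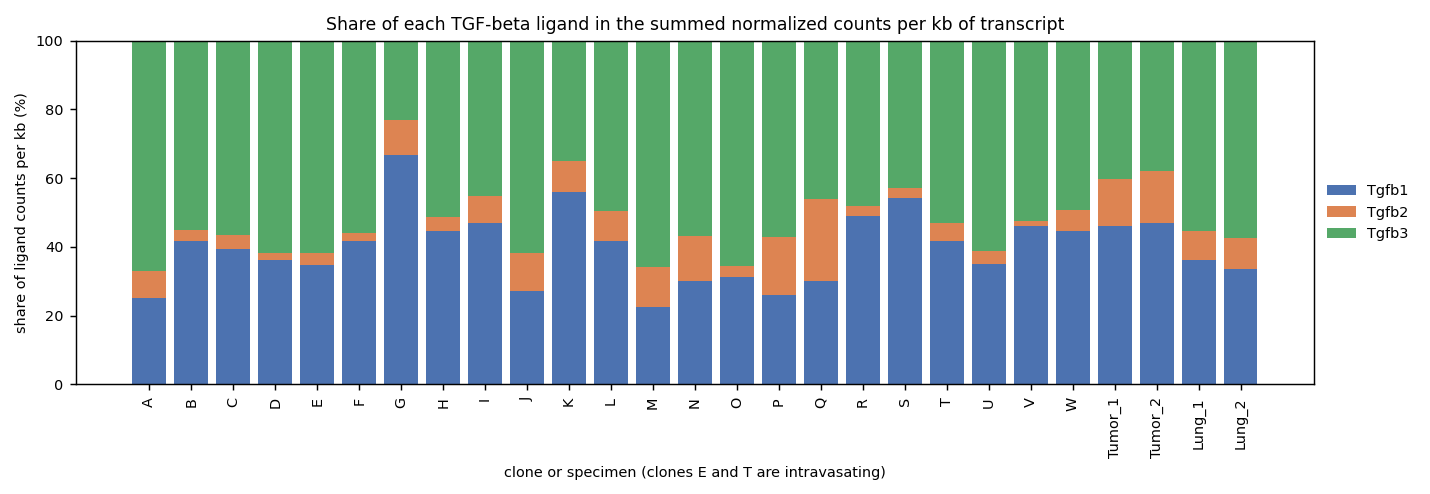
Share of each ligand (%) in the summed normalized counts per kb of the 3 ligands, by clone and specimen, as means of 2 libraries. With the length of the longest coding transcript, Tgfb3 makes up 67% in clone A and 23.1% in clone G, and the Tgfb2 share is 1.62% in clone V and 23.8% in clone Q.

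Tgfbr1, the signalling type I receptor, had the narrowest range of the 9 genes. It ran from 1372 counts in clone A through 1777 to 2586 in clone G, a 1.88-fold span, and 20 of 22 neighbouring pairs overlapped. Clone T was next highest at 2458 counts.

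Tgfbr2, the ligand-binding type II receptor, ran from 1713 counts in clone S through 3532 to 5589 in clone C. That is a 3.26-fold span, with 5516 and 5662 counts in the libraries of C and 1742 and 1684 in those of S. Per kb, Tgfbr2 was the highest receptor in 17 clones, Tgfbr1 in 5 (D, G, K, S and T) and Tgfbr3 in 1 (W). With the union of exons these counts were 19, 4 and 0.

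Tgfbr3, or betaglycan, which presents ligand to Tgfbr2 and is needed most for Tgfb2, had the widest range of the 9. It ran from 11.3 counts in clone L through a median of 302 to 2124 in clone W, a 187.6-fold span. Clone A stood at 12.1, P at 24.1 and J at 21.6 counts, whereas B, F, G and S stood between 1252 and 1528. The low values rest on few reads, with 7 and 12 reads in the libraries of clone L and 6 and 16 in those of A. Only 10 of 22 neighbouring pairs overlapped, and the log2 SD was 1.65 between clones against 0.16 between libraries of a clone.

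Tgfbi encodes a secreted matrix protein and takes its name from its induction by TGF-beta. It was low in most clones, with a median of 13.2 counts. Clone C had 115.4 counts and U 79.4. Clones K and G had 1 to 3 reads per library, so no ratio is given for them.

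Skil, the Ski-like repressor of Smad targets, ran from 1667 counts in clone W through 3301 to 5634 in clone C, a 3.38-fold span, with 17 of 22 neighbouring pairs overlapping. Smad7, which blocks the activated type I receptor, ran from 387.6 counts in clone W through 703.1 to 1232 in clone J, a 3.18-fold span, with 19 of 22 overlapping. Clone W thus had the lowest level of both feedback genes and the highest level of Tgfbr3.

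Over the 36 pairs of members, 3 had an absolute Pearson r above 0.5 over the 23 clones, given here as a description. Tgfbr3 and Smad7 ran in opposite directions (r = -0.62, Spearman rho = -0.58, and r = -0.57 without clones L and A, the 2 farthest from the median of Tgfbr3). Tgfb1 and Tgfbr3 ran together (r = 0.60, rho = 0.57, and r = 0.56 without clones J and M). Skil and Smad7 ran together (r = 0.55, rho = 0.44), but r was 0.38 without clones W and C, so their relation rests in part on those clones. The points share the libraries and their scaling.

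For some members, the genes with the most similar profile over the clones often lay on the member's own chromosome. For Tgfbr2 on chromosome 9, 37 of the 50 genes with the highest Pearson r were also on chromosome 9 (74%), which held 5.72% of the tested genes with a known position. The 3 nearest were Stt3b (r = 0.80), Gm6432 (r = 0.78) and Mras (r = 0.78), all on chromosome 9. The count was 30 by Spearman's rho and 31 without clones S and K.

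For Skil, the count was 20 of 50 on chromosome 3 (40%, against 5.02% of tested genes), and its 3 nearest genes, Ccrn4l, Setd7 and Atp11b (r = 0.84, 0.83 and 0.80), were all there. Tgfb3 had 16 of 50 on chromosome 12 (32%, against 3.45%). Its nearest gene was Galnt2 (r = 0.80), followed by Six4 (r = 0.80), which is on chromosome 12, and Plcd1 (r = 0.79). Tgfb1 had 11 of 50 on chromosome 7 (22%, against 7.48%), but 5 without clones J and M.

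The other members had fewer such genes. The count was 6 of 50 for Tgfbr1 on chromosome 4 (12%, against 6.15% of tested genes) and 4 for Smad7 on chromosome 18 (8%, against 2.62%). It was 3 for Tgfbr3 on chromosome 5 (6%, against 6.3%), 2 for Tgfb2 on chromosome 1 (4%, against 5.68%) and 0 for Tgfbi on chromosome 13, which held 3.94%. The count for Smad7 was 11 by Spearman's rho. The nearest profile to Tgfbr3 was that of Nov (r = 0.89), a secreted matricellular protein, followed by Xdh (r = 0.89) and Casp4 (r = 0.87), on chromosomes 15, 17 and 9.

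The nearest profiles to Tgfb1 were Atf2, Zeb2 and Rab9 (r = 0.84, 0.83 and 0.82). Those to Tgfb2 were Col1a1, Lgmn and Fbxl6 (r = 0.83, 0.82 and 0.81), with Col1a1 itself between 0 and 11.6 counts in the clones. Those to Tgfbr1 were Gpsm3, Tmem236 and Pqlc2 (r = 0.73, 0.69 and 0.69), those to Tgfbi were Scin, Zbtb25 and Nt5e (r = 0.85, 0.82 and 0.81), and those to Smad7 were Spata5l1, Mab21l2 and Nnat (r = 0.83, 0.78 and 0.77). For Tgfbi, rho was lower than r for Zbtb25 (0.53), and r without clones C and U was 0.57.

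The median of the 197 tested genes within 10 Mb of Tgfbr2 ran from -0.31 in clone S to 0.23 in clone C, each gene centred on its own mean over the clones. Tgfbr2 was lowest and highest in those same clones. Its correlation with that median was r = 0.67 (rho = 0.56), and with the rest of chromosome 9 r = 0.56. Clone T was an exception, with Tgfbr2 at -0.61 and its neighbours at 0.15. For Tgfb3 the correlation with the 125 genes around it was r = 0.62 (rho = 0.60). It was r = 0.59 for Tgfb1, 0.51 for Smad7 (rho = 0.63) and 0.43 for Skil. It was r = 0.245 for Tgfbr1, 0.212 for Tgfb2 and -0.37 for Tgfbi. For Tgfbr3, with the widest range, it was r = -0.14 over 159 genes. These relations were looked for after the values were seen, the 23 points share libraries and scaling, and their origin was not tested.

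**Figure D3:**
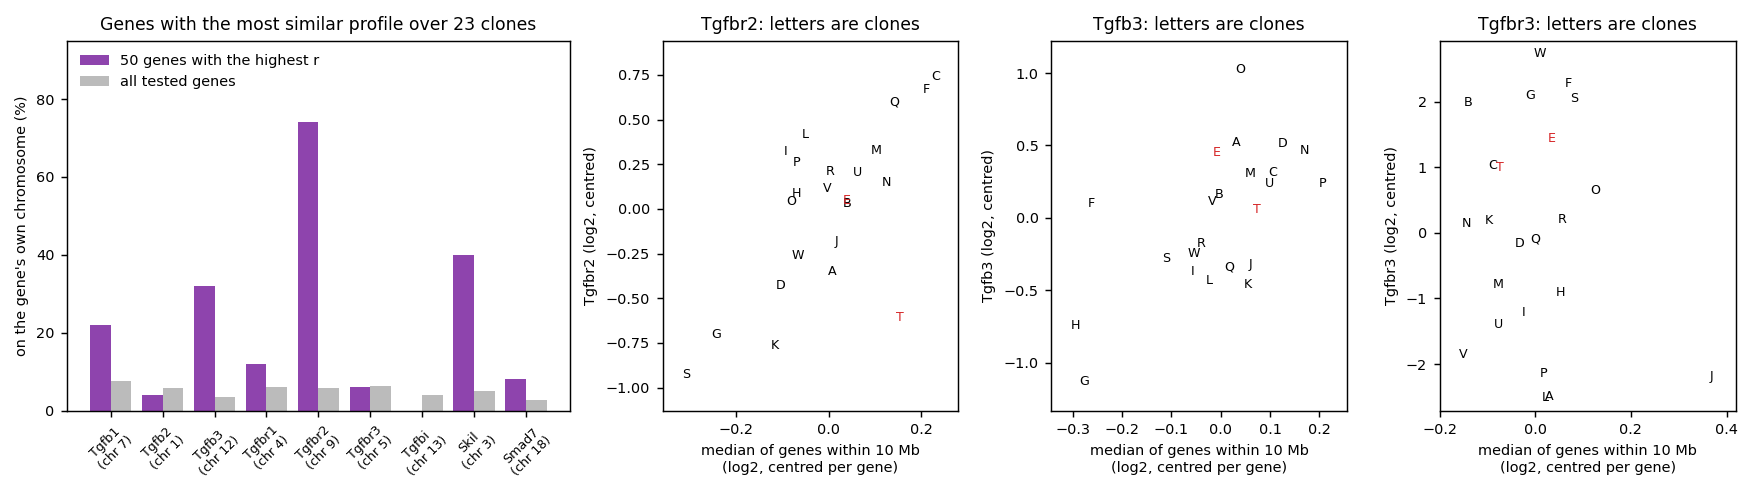
Left, share (%) of the 50 genes with the highest Pearson r to each member over 23 clones that lie on its own chromosome, beside the share of all tested genes there. Tgfbr2 reaches 74% against 5.72%. Right, centred log2 level of Tgfbr2, Tgfb3 and Tgfbr3 against the median of genes within 10 Mb, with 1 letter per clone and clones E and T in red. Tgfbr2 and Tgfb3 rise with their neighbours (r = 0.67 and 0.62) and Tgfbr3 shows no such trend (r = -0.14).

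The series was designed to find genes that set the intravasating clones apart, and in the comparison of class means none of the 9 genes passed. For Tgfbr3, clone E had 687.8 and 990.7 counts in its libraries and clone T had 566.9 and 627.9. The 21 other clones had a lowest, median and highest mean of 11.3, 246.9 and 2124 counts. Clones E and T were thus in the upper part of a range that reached well above them, with E above 16 and T above 15 of the 21. The difference was 1.33 ± 1.13 (SE) on the log2 scale with a 95% interval from -0.99 to 3.66.

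In limma with 1 value per clone, 0 of 9 members and 0 of 13637 genes (0%) had an adjusted p under 0.05, and 109 of all genes but no member had an unadjusted p under 0.05. By the exact permutation test over clones, two-sided, the members' p ran from 0.285 for Smad7 to 0.767 for Tgfb1, and the smallest p that 2 clones against 21 allow is 0.00791. The intervals leave room for sizeable differences. For Tgfb2 the interval ran from -1.29 to 0.81, and the narrowest, for Tgfbr1, ran from -0.19 to 0.53. With clone T left out, the differences of Tgfbr1 and Tgfbr2 changed sign, to -0.10 and 0.02.

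The design text also describes a rule by which a gene must exceed at least 11 of the 21 others in E as well as in T. With limma contrasts between clones over the 46 libraries, 1 member, Tgfbr3, met it, with E above 16 and T above 14 of the others. E was below 5 and T below 5. The rule in that direction was met by 2.14% of genes tested. In the opposite direction Skil met it, with E and T each below 11 of the others, exactly the number required, and 1.61% of genes did so. The Skil level was 2886 counts in E, 2885 in T and 3633 in the median of the others. It no longer met the rule without the filter on low values, when T was below 10, and no longer when a log2 difference of at least 1 was asked, whereas Tgfbr3 met it under both.

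The remaining members moved in 1 of the clones or in neither. Clone T was above 15 of the others in Tgfbr1 and above 17 in Tgfbi, and below 17 in Tgfbr2, whereas E was above 0, above 3 and below 6. Smad7 was lower in E than in 10 of the others and lower in T than in 3.

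Clones E and T therefore differed from each other within the pathway. For Tgfbr2, E had 3541 and 3312 counts and T had 2324 and 1994, a difference of 0.65 ± 0.10 (SE, adjusted p = 1.08e-05 by limma). For Tgfbr1, E had 1814 and 1543 counts and T had 2674 and 2242, a difference of -0.53 ± 0.13 (adjusted p = 0.00216). The type II receptor was thus higher in E and the type I receptor higher in T, with no overlap between libraries. Tgfbi had 17.8 and 16.0 counts in E and 46.6 and 39.1 in T, a difference of -0.55 ± 0.16 (adjusted p = 0.00722).

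The other calls were closer to the threshold. Tgfb3 was higher in E by 0.39 ± 0.15 (adjusted p = 0.0414) and Tgfbr3 by 0.43 ± 0.15 (adjusted p = 0.0321). Both calls were lost without the filter on low values (adjusted p = 0.0645 and 0.0539). In all, 5 of 9 members were called against 28.7% of all genes tested. Each clone has only 2 libraries, and without library A of clone T only Tgfbr2 was called. Without library B of clone T, library B of clone E, or library A of clone E, the counts were 3, 3 and 4. Skil differed by 0.00 ± 0.12 with an interval from -0.24 to 0.24, and Tgfb1, Tgfb2 and Smad7 were not called.

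Among other pathway genes, taken from lists chosen with earlier results of these data known, latency and activation genes were called in 10 of 19 tested between E and T, 6 of them higher in E, beside 28.7% of all genes called, 15.3% higher and 13.4% lower. Ltbp3 and Ltbp4, which tether latent TGF-beta to the matrix, were higher in E by 1.58 ± 0.13 and 1.02 ± 0.14, and Itgb6, a subunit of an activating integrin, was lower at -0.97 ± 0.13. Of 28 TGF-beta response genes, 6 were higher and 7 lower in E. Pmepa1, an inhibitor of Smad signalling, was lower in E at -1.35 ± 0.17 and Ptgs2 at -1.39 ± 0.13, while Sparc was higher by 1.15 ± 0.14 and Id3 by 1.03 ± 0.15. The response list's median was 0.005 and that of all genes 0.007.

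Under the rule for both clones, the response genes Ctgf, Cyr61, Ptgs2 and Bhlhe40 were lower in E and T than in at least 11 others, and Pthlh was higher. Each also differed from some clones in the opposite direction. E and T were above 4 and 4 of the others in Ctgf and above 3 and 10 in Cyr61. They were above 1 and 8 in Ptgs2 and above 3 and 6 in Bhlhe40, and below 6 and 3 in Pthlh. For Cyr61, T was thus in the middle of the range, below 11 and above 10. Of the latency and activation list, Thbs1, Itgb1 and Furin were lower. Of the Smads and Smad regulators, Nedd4l, a ubiquitin ligase, was lower.

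Between the orthotopic tumors and the clones no member passed the test. Tgfb2 had 283.8 counts in Tumor_1 and 254.9 in Tumor_2, above 20 of the 23 clones in each. Smad7 had 473.8 and 505.9 counts, below 22 of 23. Tgfbr1 had 1470 and 1378 counts, below 19 and 22 of 23, in the lower part of the clones' range. None of these differences passed. Smad7 differed by -0.50 ± 0.23 (adjusted p = 0.211 by limma), and it alone among the members had an unadjusted p under 0.05 (0.0388). The count was 0 of 9 members against 7.46% of 14235 genes (5.71% higher and 1.75% lower). No member lay above every clone in both tumors, as 4.97% of genes did, or below every clone, as 2.01% did.

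In the lung metastases Tgfbr1 and Tgfbi were higher than in the clones. For Tgfbr1 the libraries of Lung_1 had 2614 and 3049 counts and those of Lung_2 had 3716 and 3697. The clones' lowest, median and highest means were 1372, 1777 and 2586. Both lung metastases lay above every clone, as they did for 9.02% of genes tested. The difference was 0.82 ± 0.17 (adjusted p = 0.00115 by limma), and the exact permutation p was 0.00667, the smallest that 2 specimens against 23 clones allow.

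Tgfbi had 94.3 and 104.7 counts in the libraries of Lung_1 and 238.4 and 260.6 in those of Lung_2. The clones' median was 13.2, and only clone C, at 115.4, exceeded Lung_1. The mean of the metastases was 8.06-fold that of the clones. The difference on the compressed log2 scale was 1.76 ± 0.34 (adjusted p = 0.000513), with an exact permutation p of 0.0133.

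These 2 calls compare with 18.7% of 14235 genes called, 12.4% as higher and 6.34% as lower. No member lay below every clone in both metastases, as 5.64% of genes did. Both calls rest on Lung_2. Without it 0 of 9 members were called, with differences of 0.62 for Tgfbr1 (adjusted p = 0.144) and 1.28 for Tgfbi (adjusted p = 0.126). The lone specimen is then assumed to vary like the other groups.

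Tgfbr3 and Smad7 lay near the edge of the clones' range. Tgfbr3 had 1504 and 2044 counts, above 21 and 22 of the clones, with a difference of 2.46 ± 1.09 (adjusted p = 0.119). Smad7 had 426.8 and 503 counts, below 22 of the clones in each, with a difference of -0.57 ± 0.23 (adjusted p = 0.0817, and 0.0294 with libraries lettered A only). The tumor and lung comparisons share the 23 clones and the estimate of spread, so the similar values of Smad7 in them are not independent.

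Because Tgfbr1 and Tgfbi were higher in the metastases in this comparison and in the next, the sequence before their start sites is shown, from RefSeq on GRCm38.p6. Capitals mark matches, on either strand, to 1 of 2 motifs, and the matches do not overlap. The first motif is the Smad box, CAGAC. The second is the box bound by Sp1, with the letters GGGCGG. The stretch for Tgfbr1 is chr4:47352972-47353221 on the plus strand and ends at the base before the annotated gene. The stretch for Tgfbi is chr13:56609336-56609522 on the plus strand and also ends there, short of the RefSeq start.
Tgfbr1: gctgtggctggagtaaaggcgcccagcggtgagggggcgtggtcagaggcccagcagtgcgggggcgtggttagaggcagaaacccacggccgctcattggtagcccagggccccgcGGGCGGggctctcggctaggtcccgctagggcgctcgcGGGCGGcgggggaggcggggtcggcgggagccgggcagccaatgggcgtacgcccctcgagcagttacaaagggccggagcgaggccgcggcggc
Tgfbi: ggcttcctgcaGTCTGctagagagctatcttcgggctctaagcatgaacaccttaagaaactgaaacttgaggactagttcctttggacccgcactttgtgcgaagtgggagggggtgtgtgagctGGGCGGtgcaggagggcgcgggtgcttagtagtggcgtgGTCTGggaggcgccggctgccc
The Tgfbr1 stretch held 2 GC boxes and no Smad box. RefSeq also lists a second start for Tgfbr1, and its window, chr4:47385966-47386215, held 1 Smad box and no GC box. The Tgfbi stretch held 2 Smad boxes and 1 GC box. Neither held an AP-1 site (TGANTCA) or TATAAA. These are short motifs. Of 32851 promoter windows of 250 bases, 42.2% held CAGAC, 32.7% GGGCGG, 6.75% TGANTCA and 12.4% TATAAA, so a match describes the letters only.

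Between lung metastases and orthotopic tumors, the type I receptor, the co-receptor, Tgfb3 and Tgfbi were higher in lung and the type II receptor was lower. Tgfbr1 had 1491 and 1450 counts in Tumor_1 and 1391 and 1365 in Tumor_2, all below the lowest lung library at 2614. The difference was 1.15 ± 0.14 (adjusted p = 0.000803 by limma on 1 value per specimen), or 2.3-fold in mean counts. Tgfbi had 20.9 and 17.1 counts in Tumor_1 and 10.7 and 17.5 in Tumor_2. Its mean was 10.5-fold higher in lung, and the difference was 1.76 ± 0.27 (adjusted p = 0.00197).

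Tgfb3 had 545.6 and 422.6 counts in the tumors against 862.2 and 940.5 in the metastases, a difference of 0.82 ± 0.13 (adjusted p = 0.00266). Tgfbr3 had 987.9 and 901.9 counts against 1504 and 2044, a difference of 0.85 ± 0.15 (adjusted p = 0.0039). In the opposite direction, Tgfbr2 had 4241 and 4014 counts in the tumors and 2953 in each metastasis, a difference of -0.47 ± 0.11 (adjusted p = 0.0135). The specimens did not overlap in any of these genes. Library B of Lung_1, at 3305 counts of Tgfbr2, came close to library B of Tumor_2, at 3417.

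Per kb, the leading gene of each family changed with the site. The highest ligand was Tgfb1 in both tumors (184.5 and 154.4 counts per kb) and Tgfb3 in both metastases (254.9 and 278). With the union of exons it was Tgfb3 in all 4 specimens. The highest receptor was Tgfbr2 in both tumors (524.1 and 496 counts per kb) and Tgfbr1 in both metastases (491.9 and 644), with either length.

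The other members were not called. Tgfb1 differed by -0.02 ± 0.13, Smad7 by -0.075 ± 0.12, Skil by -0.18 ± 0.13 and Tgfb2 by -0.27 ± 0.12 (adjusted p = 0.123). With the library letter as a replicate block, Tgfb2 was called as lower (adjusted p = 0.0433).

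In all, 5 of 9 members were called against 31.4% of 13702 genes. With 2 specimens a side the exact permutation test cannot go below p = 0.333, so the calls rest on the spread that limma shares across genes. Only Tgfbr1 was called when the clones entered the fit and the spread was that of 27 values, and with libraries lettered B only 2 members were called, Tgfbr1 and Tgfbi. Without Tumor_1 the count was 3 (Tgfbr1, Tgfbi and Tgfb3) and without Tumor_2 it was 2 (Tgfbr1 and Tgfb3).

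**Figure D4:**
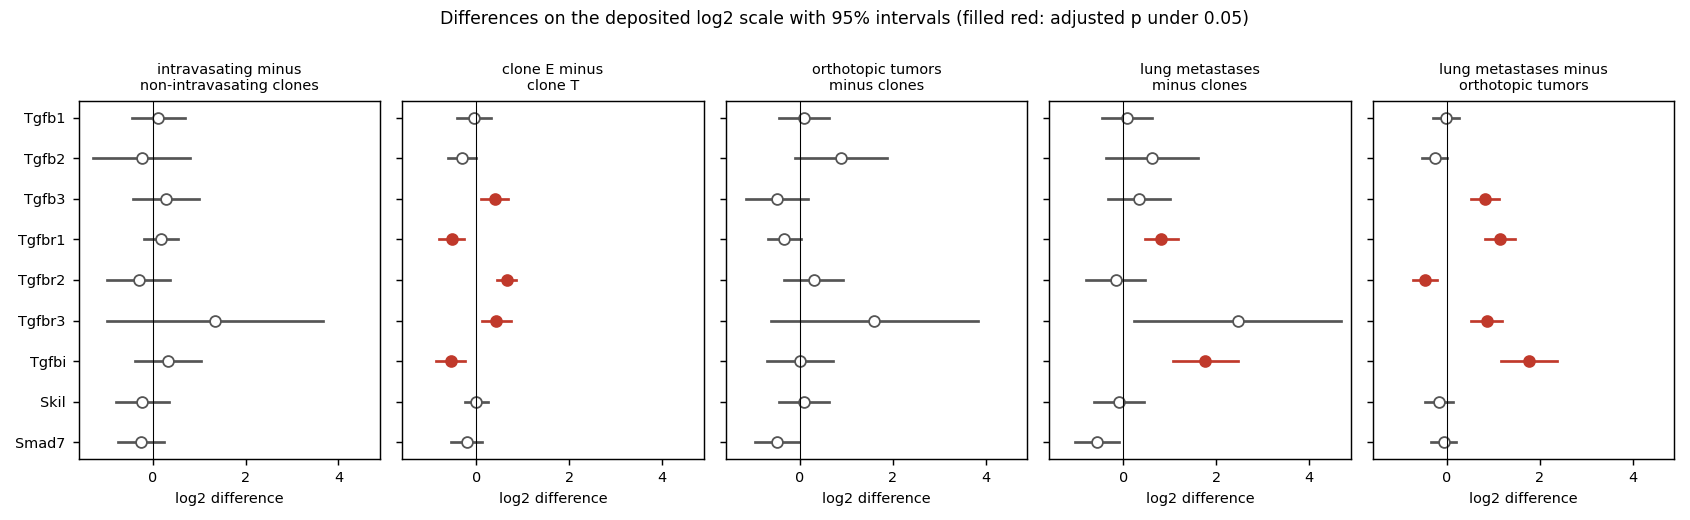
Log2 differences of the 9 genes in 5 comparisons, with 95% intervals from limma. Filled red points have an adjusted p under 0.05. Between E and T and between lung and tumor 5 of 9 are called, between lung and clones 2 (Tgfbr1 and Tgfbi), and in the other panels 0.

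Markers of host cells moved with these comparisons. The summed level of the 10 measured macrophage markers was 1517 to 3186 counts in the metastases, 1088 to 1307 in the tumors and 186.2 to 2251 in the clones, the top being clone G. Lyz2 made up much of the sum in the metastases, and without it the sums were 665.9 in Lung_1, 1355 in Lung_2, 789.7 in Tumor_1 and 751.2 in Tumor_2. Of the 10 markers, 3 were higher and 1 lower in lung than in tumors, beside 16.6% of all genes higher and 14.8% lower. For 6 pan-leukocyte markers the sums were 178 to 503.9 in the metastases, 112.2 to 137.4 in the tumors and 6.2 to 265.8 in the clones. For 8 fibroblast markers they were 1664 to 4509, 706.6 to 798.8 and 119.4 to 1803 in the same order, and Pdgfra made up most of them. Without Pdgfra the sums were 171.9 in Lung_1, 1115 in Lung_2, 230.2 in Tumor_1, 194.9 in Tumor_2 and at most 77.1 in the clones. Of 7 fibroblast markers tested, 1 was higher and 0 lower in lung than in tumors, beside the same 16.6% and 14.8% of all genes. Without Lyz2 or Pdgfra, Lung_1 was thus below both tumors in the macrophage and fibroblast sums. Of the 4 specimens, Lung_2 was highest in these sums and in Tgfbr1, Tgfbr3 and Tgfbi. Single macrophage markers differed in direction. Lung_1 was below both tumors in Cd14, Cd68, Itgam and Mrc1, and the clones reached 1699 and 487.8 counts in Cd14 and Cd68. It was above both in C1qa, C1qb, C1qc and Emr1, which had at most 1.07 counts in any clone. For C1qc the counts were 54.5 in Lung_1, 11.1 in Tumor_1 and 9.72 in Tumor_2. Csf1r lay between the tumors. Host macrophages and fibroblasts can express Tgfbi and the TGF-beta receptors, and the part of these cells in the differences was not tested.

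The 9 endothelial markers summed to 189.2 to 194.6 counts in the metastases, 140.2 to 143.8 in the tumors and 69.9 to 215.2 in the clones. The 7 lung epithelium markers summed to 30.8 to 39.7 counts in the metastases, within the range of 16.6 to 63.8 in the clones, and the 7 lymphocyte markers to at most 13.02. Neutrophil, smooth muscle, platelet and adipocyte sums in the metastases were at most 62.3, 139.2, 227.9 and 9.63. The hemoglobin genes Hbb-b1 and Hba-a1 were at 0 in every clone and specimen, so they cannot show how much blood a specimen held. The other erythroid marker, Alas2, had 78.4 and 79.3 counts in the metastases, 86.9 and 112.7 in the tumors and 30.5 to 83.4 in the clones. It was called higher than in the clones at both sites. The platelet sum was 230.4 to 294 in the tumors. In the tumors Cd2, Ms4a1, Nkg7, Rgs5 and Sftpa1 were also at 0. The 7 epithelial tumor cell markers summed to 15731 to 22316 counts in the metastases, 27102 to 30162 in the tumors and 16394 to 91959 in the clones.

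The wider pathway gave a mixed picture in the specimens. Against the clones, 10 of 30 response genes were higher in lung and 0 lower, beside 12.4% of all genes higher and 6.34% lower. In the tumors 8 of 30 were higher and 0 lower, beside 5.71% and 1.75% of all genes. Among them were the collagen genes Col1a1 and Col1a2, at 2.26 ± 0.26 and 2.27 ± 0.26 in lung and 1.36 ± 0.26 and 1.16 ± 0.26 in the tumors. Both are also in the fibroblast marker list. The crosslinking enzyme Lox had 14.2 and 56.6 counts in the metastases and 12.6 and 10.5 in the tumors. Lox and Col3a1 had at most 1.05 and 1.61 counts in any clone and passed the filter only through the specimens. They could therefore not come out as lower. In the clones alone, 28 response genes passed the filter. The response list's median was 0.46 in lung and 0.56 in the tumors, against 0.06 and 0.05 over all genes.

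Between lung and tumors, 4 of 29 response genes were higher and 4 lower, beside 16.6% of all genes higher and 14.8% lower, so these shares are near the background. Ctgf and Cyr61, secreted matricellular proteins also known as Yap targets, were lower in lung, at -2.62 ± 0.11 and -2.54 ± 0.14, and so was Ptgs2 at -1.85 ± 0.12. Id1, a target of BMP and TGF-beta signals, was higher by 1.18 ± 0.15. Of the 20 Smads and Smad regulators, 5 were called in all, beside 31.4% of all genes, and of these 3 were higher, among them Smad3 at 1.10 ± 0.14 and the repressor Ski at 0.76 ± 0.12, and 2 were lower.

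Of 19 latency and activation genes 5 were lower in lung than in tumors and 2 higher, beside the same 14.8% and 16.6% of all genes, and the list's median was -0.005. They include Thbs1 at -1.81 ± 0.12 and Itgb6 at -1.22 ± 0.13, and the plasminogen activator Plat, higher by 1.43 ± 0.18. Of 6 activin-family genes tested, 4 were lower and 0 higher, among them Inhba, a subunit of activin, at -1.34 ± 0.18 and its antagonist Fst at -1.61 ± 0.17. Of 11 receptors and accessory proteins, 2 were higher, Eng at 0.50 ± 0.10 and Dab2 at 0.38 ± 0.11, and 1, Cd109, was lower.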

How the data were processed

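RNA was sequenced in 54 libraries. Per the labels' protocols, 100 ng of total RNA was amplified with a NuGEN kit and read in 76 bases. Bowtie2, HTSeq, DESeq and the build mm10 are named in the submitters' processing notes. Neither versions nor the strand setting is given in the sources used here. The authors deposited log2 values, which follow a variance-stabilising curve with a gene without reads at 5.03. Inverting it gave normalized counts, and these gave whole reads (within 0.01) for 100% of values. The tests ran on the deposited log2 values, since the deposited unit is not counts. There were 0 columns without a sample, and 27 rows with date-like names are not named.

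A gene was tested where 2 or more libraries of the comparison reached a normalized count of 10. The tests used limma 3.58.1 (R 4.3.3) with a variance trend, were two-sided, and had Benjamini-Hochberg adjustment over all genes tested, at 0.05. The script was tested on simulated data. Clones and classes were compared as the text states. Every member is named. Of the pathway lists at most 6 called genes a direction are named by size, and 3 nearest profiles per member. Members and lists were chosen with earlier results of these data known. Libraries A and B correlated at 0.981 or more, and 0 pairs were identical. Gene lengths and positions come from GENCODE M21.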

Additional observations from a re-analysis of the deposited data

How the results depend on the processing

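Of 85 alternatives to the counts of members called, 74 stayed within 1.5 times the count reported. The 74 include every alternative for intravasating against other clones and for tumors against clones, where the count stayed at 0. They also include those for differences among the 23 clones, where 95.1% of all genes were called. The 74 therefore say little about how stable the other comparisons are, and all 11 exceptions fell in those. The exceptions were as follows. Between clones E and T, 3 were called without the filter on low values, and 1 to 4 with a library left out. Between lung metastases and clones the range with a specimen left out was 0 to 2. Between lung metastases and orthotopic tumors it was 2 to 5, with 2 from libraries lettered B only and 1 in the fit over 27 values. Under the rule for both intravasating clones 1 member was left without the filter and 1 with a log2 difference of at least 1. The cause was not tested.

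Of 648 alternatives for single members, 600 kept direction and call, 27 lost the call, 2 gained it and 19 changed sign, all 19 without a call on either side. The changes of sign were as follows. With centred libraries, Skil between E and T was -0.019 and Tgfbi between tumors and clones -0.030. With libraries lettered A only, Tgfbi between tumors and clones was -0.029 and Tgfb1 between lung and clones -0.055. With libraries lettered B only, Tgfb1 between tumors and clones was -0.21, Skil between lung and clones 0.002, and between lung and tumors Smad7 was 0.059 and Tgfb1 0.41. The other 11 came with 1 clone, specimen or library left out, in 9 results. Between intravasating and other clones Tgfbr1 ran from -0.095 to 0.44 and Tgfbr2 from -0.64 to 0.018. Between E and T, Skil ran from -0.068 to 0.071 and Tgfb1 from -0.14 to 0.051. Between tumors and clones, Tgfb1 ran from -0.035 to 0.22 and Tgfbi from -0.073 to 0.077, and between lung and clones Skil ran from -0.25 to 0.067. Between lung and tumors, Smad7 ran from -0.18 to 0.027 and Tgfb1 from -0.15 to 0.11.

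The main fits did not pair samples by library letter. Over 253 pairs of clones the correlation of same-lettered deviations ran from -0.50 to 0.64, with a median of 0.08 and 113 above 0.1. Over 6 pairs of specimens it ran from -0.66 to 0.51, with a median of -0.22 and 3 above 0.1. Genes called rose from 3919 to 4207 between E and T when the letter entered as a replicate block. Between lung metastases and tumors they rose from 4305 to 5015. That fit used the 8 libraries, with the correlation within a specimen allowed for, and not 1 value per specimen. The rise there cannot be assigned to the letter alone. Whether libraries of a letter share a batch was not tested. With the letter as a block, 9 members differed among clones, 5 between E and T and 2 under the rule for both clones. These counts were the same without it. Between lung metastases and tumors 6 differed in the fit on libraries, against 5 in the main fit on specimens. Depth limits Tgfbi, with 1 to 3 reads per library in clones G and K. Alternatives for gene length, for the nearest profiles and for marker sums without Lyz2 or Pdgfra were added after seeing the data, and the number of nearest genes on the own chromosome of Tgfbr2 then ran from 30 to 37.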
